A study of Mus musculus with 8 samples.

Results

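Interferon-stimulated genes are the genes that cells switch on when interferon reaches its receptors. The 31 genes described here were chosen by name, as rows of the deposited table whose gene symbol equals a member of the list, out of 37982 genes in all. RNA came from C57BL/6 mouse ventricle at postnatal day 7, freed of the atria, in 8 samples, 2 labelled wild type, 3 double mutant and 3 triple mutant. From what is known of the study, Mkl2 and Myh7 were altered in the double mutant, and Nkx2-5 in addition in the triple mutant. Myh7 is a myosin heavy chain gene of heart muscle, Mkl2 codes for a partner of serum response factor, and Nkx2-5 for a cardiac homeodomain factor. The labels name neither the alleles nor the sex of the pups. Setting the triple mutant against wild type addresses the diseased heart, and setting it against the double mutant addresses the Nkx2-5 modifier. The comparison of the double mutant with wild type follows from the 3 groups.

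Interferons of type I signal through a receptor made of Ifnar1 and Ifnar2 and the kinases Jak1 and Tyk2, and Stat2 and Irf9 then take part in a complex that binds the interferon-stimulated response element (ISRE). Interferon gamma signals through Ifngr1 and Ifngr2 with Jak1 and Jak2, and leads to binding of the gamma-activated sequence (GAS). The genes switched on include sensors of foreign RNA, antiviral GTPases, RNA-binding inhibitors of translation, and the machinery that presents peptides on the cell surface. Many of them are also transcribed at a low level in tissue with no infection.

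The promoters of the members carry the letters of these elements, and the stretches below show the clearest examples. RefSeq promoter windows on GRCm38.p6, from 250 bases before to 50 bases after each annotated start, were found for 23 of the 31 members. The ISRE was searched as GAAANNGAAA and the GAS as TTCNNNGAA, on both strands, with overlapping matches allowed. The ISRE letters occur in 14 of the 23 members (60.9%) and in 3.94% of 27002 other genes. The GAS letters occur in 7 of the 23 (30.4%) and in 9.54% of the other genes, and 5 members hold neither. The members were picked as known interferon targets, and a match is a description of letters, not a shown binding site. Capitals mark the matches.
Isg15, minus strand, chr4:156200855-156200916: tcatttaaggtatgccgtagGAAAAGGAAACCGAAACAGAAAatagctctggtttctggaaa
Ifit1, plus strand, chr19:34640765-34640833: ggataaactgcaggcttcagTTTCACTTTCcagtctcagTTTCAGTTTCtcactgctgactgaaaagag
Ifit3, plus strand, chr19:34583353-34583436: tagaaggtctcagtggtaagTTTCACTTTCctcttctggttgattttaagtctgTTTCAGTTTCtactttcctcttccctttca
Irgm1, minus strand, chr11:48871421-48871470: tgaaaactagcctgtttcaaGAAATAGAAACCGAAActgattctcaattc
Gbp2, plus strand, chr3:142620584-142620633: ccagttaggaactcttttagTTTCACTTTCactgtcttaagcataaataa
Gbp3, plus strand, chr3:142559979-142560034: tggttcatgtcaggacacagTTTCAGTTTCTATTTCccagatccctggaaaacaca
Igtp, plus strand, chr11:58199491-58199551: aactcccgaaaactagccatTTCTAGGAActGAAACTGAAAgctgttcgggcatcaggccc
Bst2, minus strand, chr8:71537567-71537628: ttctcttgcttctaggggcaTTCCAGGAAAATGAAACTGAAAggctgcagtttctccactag
B2m, plus strand, chr2:122147528-122147577: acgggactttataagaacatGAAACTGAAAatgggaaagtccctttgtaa
Irf1, plus strand, chr11:53769904-53769952: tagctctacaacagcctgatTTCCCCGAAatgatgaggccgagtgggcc

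In Isg15, 3 overlapping ISRE matches run from base -78 to base -57, counted from the start, and in Irgm1 2 overlapping matches run from -30 to -15. In Igtp and Bst2 a GAS match stands next to the ISRE letters, and in Bst2 they overlap. In Irf1, which encodes a factor that itself binds ISRE-like sites, the 1 match is a GAS, from base -90 to base -82. In the sensor genes Ddx58 and Ifih1 the ISRE letters lie after the annotated start, at bases 3 to 12 and 33 to 42.

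**Figure D1:**
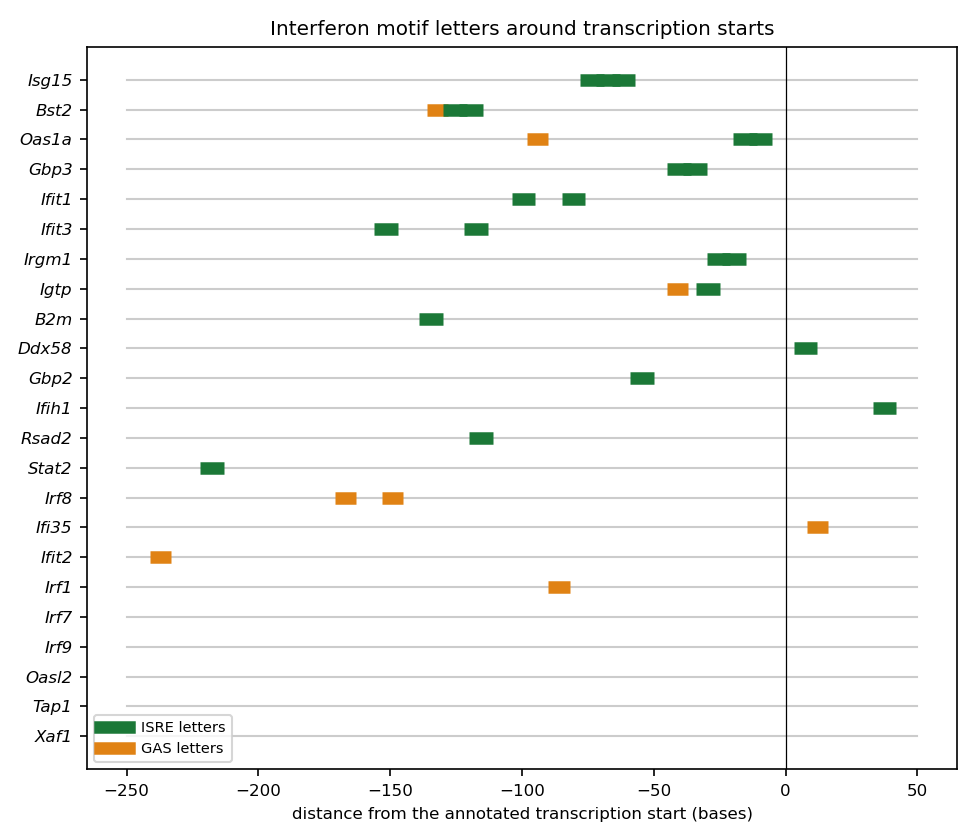
Each row is 1 of the 23 members with a promoter window, the horizontal axis is the distance in bases from the annotated start, and green and orange blocks are matches to the ISRE and GAS letters. The ISRE matches lie from base -156 to base -5, except that of Stat2 from -222 to -213 and those of Ddx58 and Ifih1 past the start.

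The deposited table gives 1 FPKM (fragments per length of transcript and per number of fragments sequenced) for each gene and group, so levels can be compared between genes per length, but no spread between pups can be given and the read depth is unknown. A difference is called here where the authors' Cuffdiff q-value is under 0.05. Beside some differences stands the standard error on the log2 scale that the deposited p-value implies, and the 95% interval made from it. Which error applies is not stated, and the deposited test score implies a wider one for most genes. Of the 73 tested differences of members, 14 have an interval without 0 by the p-value and 4 by the test score, namely the called differences of Iigp1 and Ly6e. The 14 are those with an unadjusted p under 0.05 by the authors' Cuffdiff test. They were 6 of 25 for triple mutant against wild type, 5 of 25 for triple against double and 3 of 23 for double against wild type. Over all tested genes the shares were 12.1%, 8.45% and 16.3%. The share by the test score was not computed over all genes. The members' levels were low to moderate. In wild type, 25 of the 30 members with an estimate reached an FPKM of 1, and the median FPKM was 3.56 for wild type, 3.93 for the double and 4.53 for the triple mutant. Of the members with an estimate, 16 stayed under an FPKM of 5 in all 3 groups. In all, 25 members were tested by the authors in at least 1 comparison, 23 of them in all 3, and 6 were tested in none. The 25 passed the authors' filter on low values and are not all members.

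Ly6e and B2m stood far above the other members in every group. Ly6e, a glycolipid-anchored surface protein of the Ly6 family, lay at the 96.9th percentile of wild type genes with an FPKM of at least 1, and B2m, the invariant chain of class I major histocompatibility molecules, at the 93.6th. The next were the GTPase gene Irgm1 and the RNA-binding factor gene Ifit2, with wild type levels of 15.2 and 14.4 by the authors' deposited table. At the low end the antiviral GTPase genes Mx1 and Mx2 did not exceed 0.428 and the oligoadenylate synthetase gene Oas1a did not exceed 0.322 in any group of the authors' deposited table. Irf8, a factor of myeloid cells, had no estimate in any group, because its locus in the table joins it with 159 other genes and was marked as holding too many fragments.

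**Figure D2:**
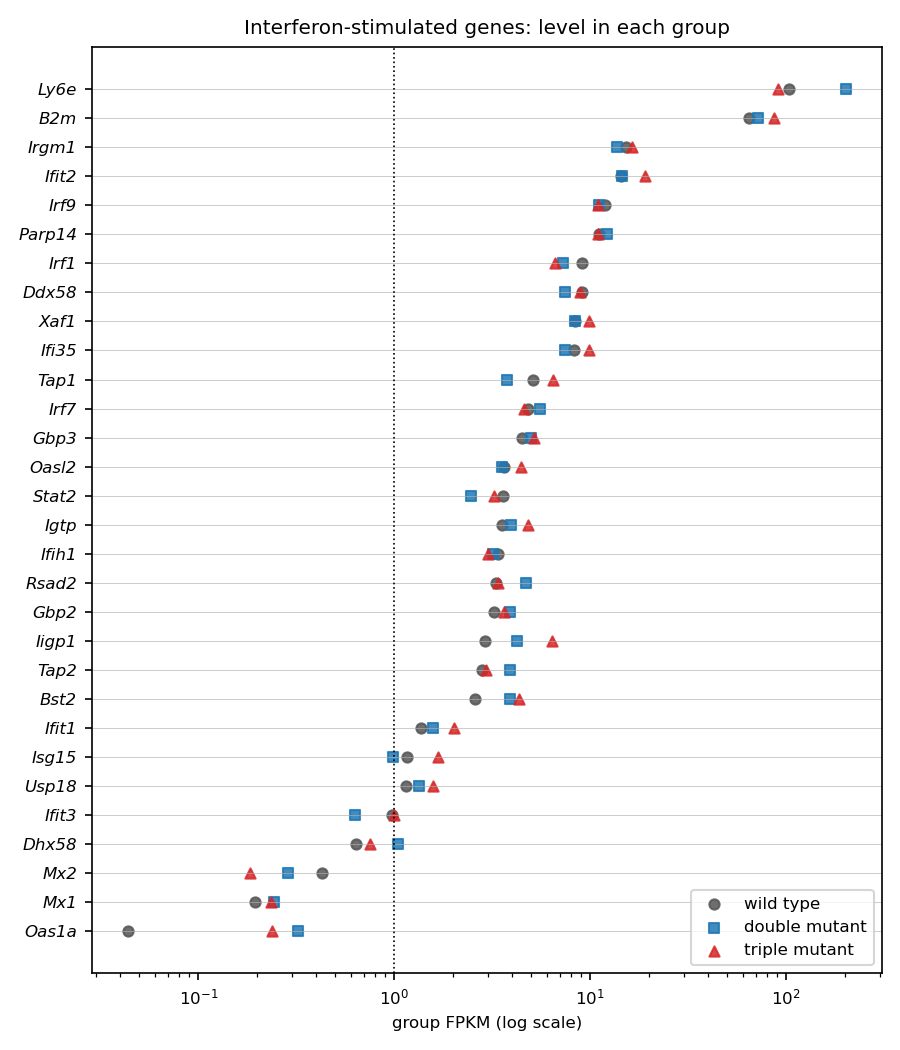
Each row is a member, the horizontal axis is the group FPKM on a log scale, and the 3 symbols are the groups, with 1 value per group and no error. Ly6e and B2m stand apart at the top, Ly6e has its double mutant symbol to the right of the others, and Iigp1 steps from wild type over double to triple mutant.

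Of the 25 members tested in any comparison, 2 were called in at least 1, Iigp1 and Ly6e, and the other 23 in none. Iigp1 was highest in the triple mutant and Ly6e in the double mutant. Against wild type, 1 of 25 tested members was called in the triple mutant, where 1.52% of all tested genes were. Between triple and double mutant 2 of 25 were called, where 1.25% of all tested genes were. In the double mutant against wild type 1 of 23 was called, beside 2.65% of all tested genes. With 1 or 2 members called, these shares rest on too few genes to be read against the background. At a q-value under 0.1, where the authors put their own mark, the counts were 2, 2 and 1, beside 2.75%, 1.98% and 4.41% of all tested genes. Between triple mutant and wild type, 21 of the 25 tested members (84.0%) differed by less than 0.5 on the log2 scale, beside 85% of all tested genes.

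Iigp1 encodes an interferon-inducible immunity-related GTPase that acts on the vacuoles of intracellular pathogens. It lies in mm9 on chromosome 18, 60535683 to 60552281, in a locus the table lists for no other gene. The authors' deposited table gives it 2.90 FPKM for wild type, 4.22 for the double and 6.38 for the triple mutant. The triple mutant was thus the highest group and wild type the lowest, with the double mutant between them. Iigp1 rose 2.2-fold in the triple mutant against wild type in the authors' deposited table (log2 fold change 1.14, implied standard error 0.281, q = 0.0066). Against the double mutant it rose 1.51-fold in the authors' deposited table (log2 fold change 0.60, implied standard error 0.177, q = 0.044), and this call was lost when q was recomputed within that comparison (0.0644). The double mutant stood 1.46-fold above wild type in the authors' deposited table and was not called (q = 0.119, 95% interval of the log2 fold change from 0.17 to 0.91). The triple mutant enters both called differences, so they are not independent of each other.

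The summed level of neutrophil markers stood in the same order of groups as Iigp1, most of it through S100a9. Over 8 genes their FPKM summed to 9.0 for wild type, 11.9 for the double and 25.4 for the triple mutant. S100a9, a calprotectin subunit, passed the threshold in the triple mutant against wild type (q = 0.0066) and against the double mutant (q = 0.0244) in the authors' deposited table. S100a8, the other calprotectin subunit, was lowest in the double mutant, at 3.62, 2.48 and 5.42 FPKM in the authors' deposited table, and was not called. Ngp was listed at 0.449, 0.736 and 2.43 FPKM and Retnlg at 0, 0.125 and 0.813, in the same order of groups as Iigp1. Ngp was not called and Retnlg was not tested. Ly6g, Camp, Mpo and Elane, which mark neutrophils or their precursors, were listed at 0 in every group. The part of these cells in the Iigp1 difference was not tested. In RNA from whole ventricle, a difference in the number of cells of a type and one in RNA per cell cannot be told apart. Macrophage markers summed to 59.4, 64.3 and 59.8 in wild type, double and triple mutant (12 genes), with none of the 9 tested called in any comparison. T and NK cell markers summed to 1.72, 2.07 and 1.95 over 12 genes and B cell markers to 1.61, 0.963 and 0.910 over 5, with no gene of either list at an FPKM of 1. Dendritic cell markers summed to 27.7, 24.4 and 25.2 over 9 genes, most of it Zbtb46 and Clec9a, the latter in a locus shared with Clec1b and Clec1a. In each group 6 of the 9 lay under an FPKM of 1, so the sum says little about the list as a whole. Siglech, a marker of the plasmacytoid cells that secrete type I interferon, was listed at 0.162 in wild type and 0 in both mutants. It was too low to be tested.

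The other tested GTPase genes among the members differed less than Iigp1 between triple mutant and wild type, and none was called in any comparison. Igtp had 3.54, 3.96 and 4.79 FPKM for wild type, double and triple mutant in the authors' deposited table, the same order of groups as Iigp1, and was not called (triple mutant against wild type, log2 fold change 0.43, 95% interval 0.05 to 0.82, q = 0.302). Irgm1, the most abundant of them, was listed at 15.2, 13.7 and 16.4 in the authors' deposited table, lowest in the double mutant, with the 3 groups close together. The guanylate-binding protein genes Gbp2 (3.23, 3.91 and 3.62) and Gbp3 (4.46, 4.98 and 5.16 in the authors' deposited table) likewise differed little, with both mutants above wild type. All 5 tested members of this GTPase group had a log2 fold change above 0 in the triple mutant against wild type, and 1 of the 5, Iigp1, was called. Over all tested genes 49.6% were above 0 and 1.52% were called, and 5 genes are too few to be read against these shares. Mx1 and Mx2, the remaining 2 genes of the group, were not tested. Outside the members, the GTPase gene Tgtp2, whose locus is shared, was listed at 1.59, 1.71 and 5.39 FPKM in the authors' deposited table. Its log2 fold change in the triple mutant against wild type, 1.76, was larger than that of Iigp1, and it was not called.

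Ly6e showed the other pattern. It lies on chromosome 15, 74785481 to 74790335 in mm9, in a locus of its own. The authors' deposited table gives it 104 FPKM for wild type, 202 for the double and 91.2 for the triple mutant. The double mutant stood apart, and wild type and triple mutant were close to each other. Ly6e rose 1.95-fold in the double mutant against wild type in the authors' deposited table (log2 fold change 0.96, implied standard error 0.237, q = 0.0066). It was 2.21-fold lower in the triple than in the double mutant in the authors' deposited table (log2 fold change -1.15, implied standard error 0.283, q = 0.0066). Triple mutant and wild type were not called apart (log2 fold change -0.18, q = 0.673 in the authors' deposited table, 95% interval -0.45 to 0.08). The double mutant enters both called differences.

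Ly6e belongs to a cluster of Ly6 genes, and 3 neighbours with a level were looked at after its values were seen. Ly6c1, a surface antigen of endothelial cells and monocytes, was listed at 43.5, 62.5 and 40.4 in wild type, double and triple mutant in the authors' deposited table, highest in the double mutant as well. It was 1.55-fold lower in the triple than in the double mutant in the authors' deposited table (q = 0.0114) and missed the threshold in the double mutant against wild type (1.44-fold, q = 0.0575). Ly6a, the stem cell antigen Sca-1, was listed at 32.4, 32.3 and 25.5 and was called in no comparison of the authors' deposited table. Ly6c2 stood at 1.60, 2.07 and 1.44 there, with no call.

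Other measures were also highest in the double mutant. Fibroblast markers summed to 544 for wild type, 631 for the double and 513 for the triple mutant over the 6 with an estimate, with none called in any comparison. The summed FPKM of 4 Y-linked genes was 21.9, 73.7 and 54.2. Against wild type, 1 of the 4 was called in the triple mutant and 2 in the double mutant, beside 1.52% and 2.65% of all tested genes. Endothelial markers summed to 652, 624 and 555 over 8 genes, highest in wild type. The part of fibroblast content in the Ly6e difference was not tested. The Y-linked sum was lowest in wild type and differed between all groups. Since the labels give no sex, the sex of the pups cannot be told apart from genotype in any comparison, those of Iigp1 included. All 8 cardiomyocyte markers fixed for the check of the tissue, among them Myh6 and Tnnt2, had no estimate in any group, their loci being marked as holding too many fragments, so the label was not checked on them.

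**Figure D3:**
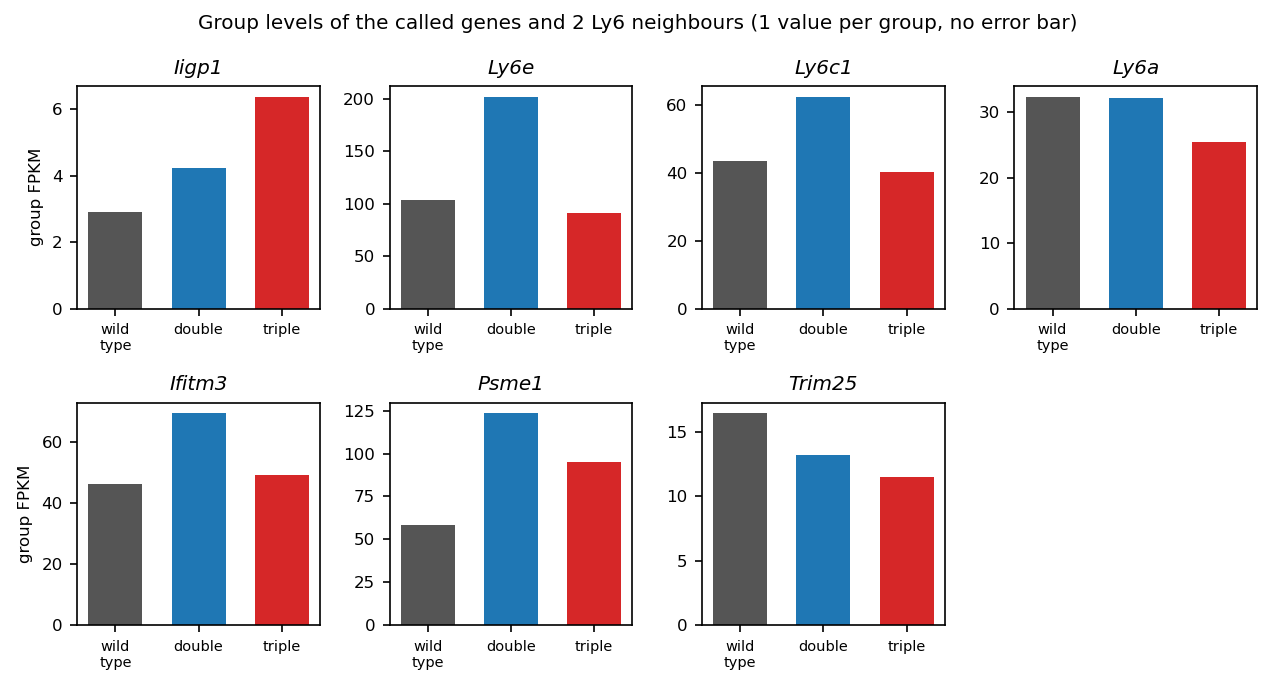
Bars give the group FPKM, from 0, for the members Iigp1 and Ly6e, the Ly6 neighbours Ly6c1 and Ly6a, and the pathway genes Ifitm3, Psme1 and Trim25, with 1 value per group and so no error bar. Iigp1 steps up over the 3 groups, Ly6e, Ly6c1, Ifitm3 and Psme1 peak in the double mutant, and Trim25 steps down.

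Ifit2 and B2m came closest to a call among the remaining members. Ifit2 encodes a protein that binds RNA and limits translation. It was listed at 14.4, 14.5 and 19.1 in wild type, double and triple mutant in the authors' deposited table, so that the triple mutant alone was higher. Its q was 0.102 against wild type (log2 fold change 0.41, 95% interval 0.14 to 0.68) and 0.105 against the double mutant (0.40, interval 0.13 to 0.67) in the authors' deposited table. B2m was listed at 64.4, 71.6 and 86.3 there, in a locus shared with Patl2 and Trim69, which leaves its level uncertain. It stood 1.34-fold higher in the triple mutant than in wild type in the authors' deposited table (log2 fold change 0.42, interval 0.15 to 0.70, q = 0.0878), past the authors' mark but not the threshold used here.

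The relatives of Ifit2 differed in level from it. Ifit1 was listed at 1.37, 1.58 and 2.01 in the authors' deposited table, again in ascending order over wild type, double and triple mutant (triple mutant against wild type 1.47-fold, q = 0.231). Ifit3 stood at 0.974, 0.631 and 1.0 there and was not tested. Oasl2, which encodes an oligoadenylate synthetase-like protein, was listed at 3.62, 3.54 and 4.45 in the authors' deposited table (triple mutant against wild type, q = 0.780). The 3 tested genes of this group of RNA binders had a log2 fold change above 0 in both comparisons with the triple mutant, and none was called.

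Among the genes that load peptides onto class I molecules, the transporter subunits Tap1 and Tap2 were not called, and the double mutant was the lowest group for Tap1 and the highest for Tap2. Tap1, in a locus shared with Psmb9, was listed at 5.09, 3.77 and 6.43 in wild type, double and triple mutant in the authors' deposited table, lowest in the double mutant. Its difference between triple and double mutant was 1.71-fold (log2 fold change 0.77, q = 0.231 in the authors' deposited table, 95% interval 0.15 to 1.39). Tap2, in a locus shared with Psmb8, was listed at 2.80, 3.91 and 2.93 there, highest in the double mutant (double mutant against wild type, q = 0.632). Neither passed the threshold in any comparison.

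Of the remaining effector genes, Bst2 showed the largest difference between triple mutant and wild type, short of a call. Bst2 encodes tetherin, which holds budding virus on the cell surface, and was listed at 2.59, 3.89 and 4.31 in wild type, double and triple mutant in the authors' deposited table. It stood 1.67-fold higher in the triple mutant than in wild type in the authors' deposited table and was not called (log2 fold change 0.74, 95% interval 0.02 to 1.45, q = 0.381). Isg15, a ubiquitin-like modifier, was listed at 1.16, 0.99 and 1.67 in the authors' deposited table, near the lower limit of what was tested, and the interval of its difference between triple mutant and wild type ran from -0.56 to 1.62 (q = 0.823). Usp18, the protease that removes Isg15 from its targets, was listed at 1.15, 1.34 and 1.58 in the authors' deposited table (triple mutant against wild type, q = 0.642). Rsad2, which encodes viperin, stood at 3.31, 4.71 and 3.37 there, highest in the double mutant, with q = 0.796 for the double mutant against wild type. Xaf1, Ifi35 and Parp14 ranged over all groups from 7.47 to 12.2 by the authors' deposited table, and none was called.

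The 6 tested sensors and transcription factors among the members had log2 fold changes below 0 in the triple mutant against wild type, none of them called. Of all tested genes 49.6% were above 0 there and 1.52% were called. Stat2, a part of the ISRE-binding complex, had 3.58, 2.45 and 3.24 FPKM for wild type, double and triple mutant in the authors' deposited table. The double mutant was lowest, 1.46-fold under wild type in the authors' deposited table (log2 fold change -0.54, 95% interval -0.92 to -0.17, q = 0.123). Irf1, in a locus shared with Gm17334, had 9.11, 7.29 and 6.60 FPKM in the authors' deposited table (triple mutant against wild type, log2 fold change -0.47, interval -1.01 to 0.07, q = 0.517). Irf9, the DNA-binding part of the same complex as Stat2, was nearly level at 11.8, 11.1 and 11.0 in the authors' deposited table.

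Irf7, which amplifies type I interferon transcription, shares its locus with Phrf1 and had 4.82, 5.51 and 4.61 FPKM in the authors' deposited table. Its interval between triple mutant and wild type was wide, from -1.67 to 1.54. The RNA sensors Ddx58 (RIG-I; 9.05, 7.42 and 8.88 in the authors' deposited table) and Ifih1 (MDA5; 3.38, 3.19 and 2.99) were not called in any comparison. Dhx58, the regulator LGP2, had 0.637, 1.05 and 0.753 FPKM in the authors' deposited table and was not tested. In the triple mutant against wild type all 6 tested sensors and factors had a log2 fold change below 0 (median -0.13, median implied standard error 0.26). Of the 19 other tested members 17 had one above 0 (median 0.30), beside 49.6% of all tested genes. Between triple and double mutant, 2 of the 6 and 14 of the 19 were above 0, beside 49.8% of all tested genes. In the double mutant against wild type, 1 of the 6 and 13 of 17 were, beside 49.5%. This grouping was made after the values were seen, and the difference between the groups was not tested. The 19 include Isg15 and Usp18, which were tested only in the comparisons with the triple mutant, their highest group.

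**Figure D4:**
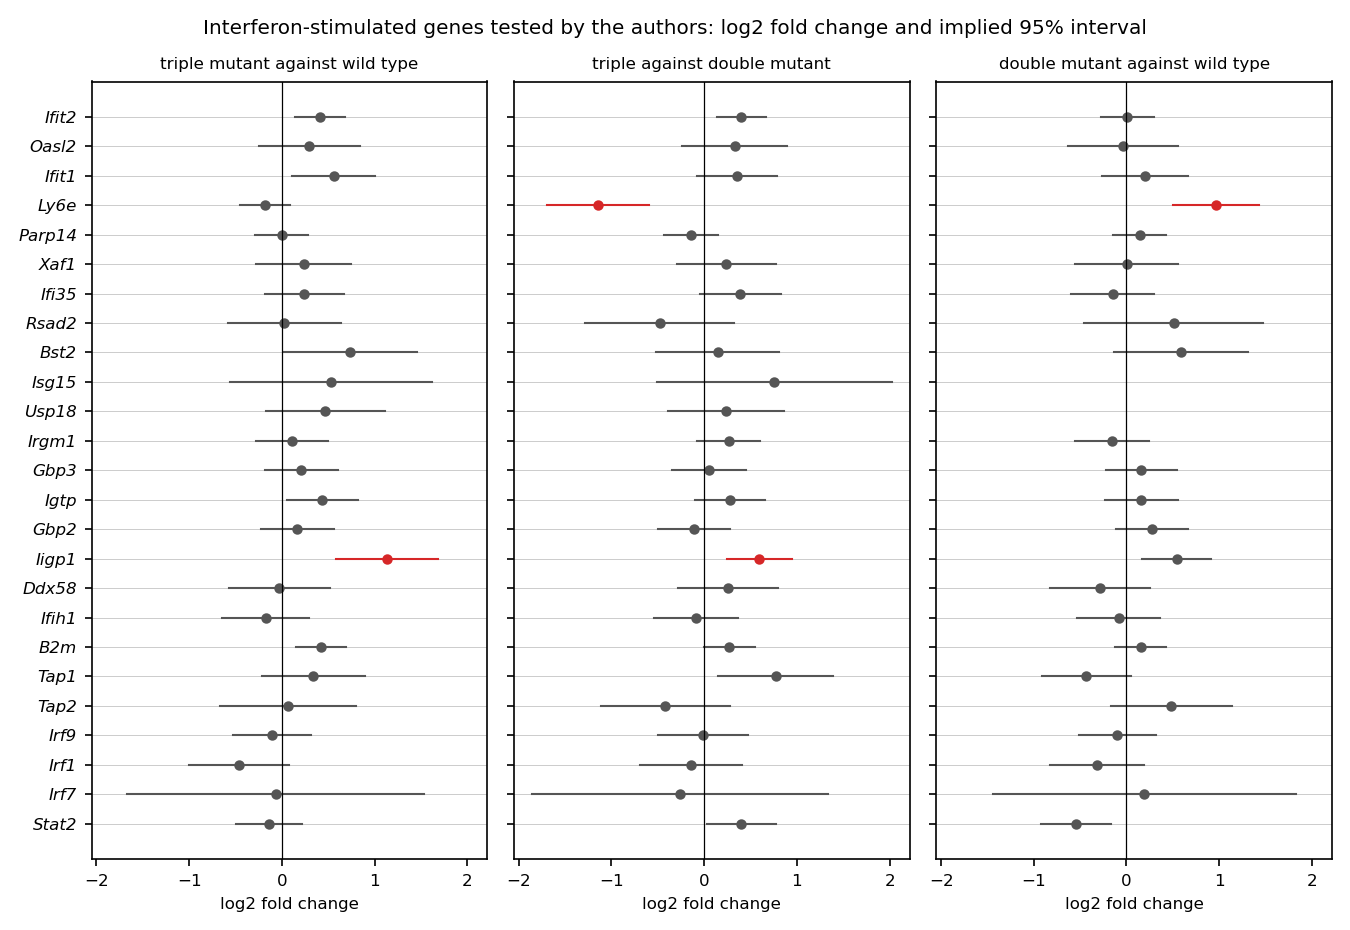
Each row is a tested member, the horizontal axis is the log2 fold change, and each panel is 1 comparison, with points for the authors' value and lines for the 95% interval implied by the deposited p-value; red marks a q-value under 0.05. Red appears for Iigp1 in the first and second panel and for Ly6e in the second and last, and the intervals of Irf7 and Isg15 are the widest.

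Over the list as a whole the middle of the distribution lay above 0 in each comparison. The median log2 fold change of the tested members was 0.21 in the triple mutant against wild type (17 of 25 above 0), where the median over all tested genes was -0.0033 and 49.6% were above 0. It was 0.24 between triple and double mutant (16 of 25 above 0), beside -0.0011 and 49.8% over all tested genes. In the double mutant against wild type it was 0.14 (14 of 23 above 0), beside -0.0040 and 49.5%. This last value was 0.01 without Iigp1 and Ly6e and -0.05 among members at an FPKM of 5 or more in either group, so its sign is not settled. Isg15 and Usp18, both highest in the triple mutant, were tested only in the comparisons with it and lie above 0 in both. They therefore add no support to the 17 of 25 and the 16 of 25. The triple mutant was the highest group for 12 of the 23 members tested in all 3 comparisons (52.2%), the double mutant for 6 and wild type for 5. Over all genes tested in all 3 comparisons the triple mutant was the highest group for 29.1%. The comparisons share groups, so these counts are not separate pieces of evidence, and the median implied standard error of a single member was 0.24 in the triple mutant against wild type. The members were chosen with earlier results of these data known. Among other interferon-stimulated genes, described further below, the medians were 0.06, -0.02 and 0.08 in the same order of comparisons.

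**Figure D5:**
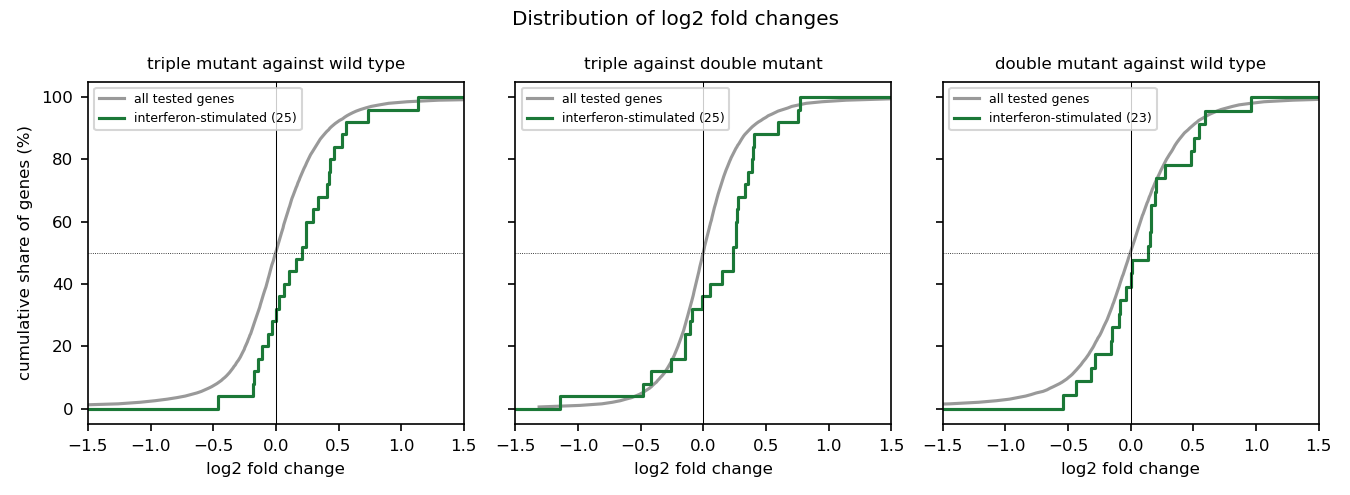
Each panel is 1 comparison, the horizontal axis is the log2 fold change and the vertical axis the cumulative share of genes, with all tested genes in grey and the tested members in green. The green line crosses the middle at 0.21, 0.24 and 0.14 and runs to the right of the grey line over most of its length in the first and second panel.

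Members with and without the ISRE letters had overlapping ranges of log2 fold change, and the difference between them was not tested. In the triple mutant against wild type, 12 tested members with a match had a median log2 fold change of 0.19 and 8 without a match one of 0.24. Between triple and double mutant the medians were 0.26 and 0.28, and in the double mutant against wild type 0.16 (11 members) and -0.07 (8 members). Neither Iigp1 nor Ly6e is among these 20, having no entry in the promoter table used.

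Upstream of the members, the interferon genes themselves were hardly seen. Of 19 interferon genes in the table none reached an FPKM of 1, and 17, 15 and 18 were listed at 0 in wild type, double and triple mutant. Ifnb1 was listed at 0 in all 3 groups of the authors' deposited table, and the highest single value was 0.403 for Ifnk, whose locus is shared, in the triple mutant. Of the receptor genes none was called, and their levels differed widely. Il28ra, a receptor chain for interferon lambda, had 1.86, 2.43 and 2.33 FPKM in the authors' deposited table. Ifngr2 was listed at 88.6, 111 and 110 in wild type, double and triple mutant in the authors' deposited table, Ifnar1 at 34.2, 32.7 and 31.7, and Ifnar2, in a locus shared with Il10rb, at 79.1, 94.3 and 105. Jak1, whose locus is shared, had 83.2, 111 and 109 FPKM in the authors' deposited table. Stat3, in a locus shared with Stat5a, had 64.7, 71.6 and 55.3 FPKM in the authors' deposited table. Of the 17 receptors, kinases, Stat factors and inhibitors listed, none was called in any comparison.

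Of the nucleic acid sensing genes, 1 of 14 tested was called in the triple mutant against wild type, beside 1.52% of all tested genes, and none in the other comparisons. A single call is too few to be read against that share. It was Trim25, the ubiquitin ligase that acts on RIG-I, listed at 16.5, 13.2 and 11.5 in wild type, double and triple mutant in the authors' deposited table. It fell 1.43-fold in the triple mutant against wild type there (log2 fold change -0.51, implied standard error 0.136, q = 0.015). The adaptor gene Mavs was nearly level at 23.3, 26.2 and 24.9 in the authors' deposited table, and so was the factor Irf3 at 29.4, 34.0 and 32.3, in a shared locus.

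A further 59 interferon-stimulated genes outside the 31 were listed for comparison, with 57 in the table. None of 40 tested was called in the triple mutant against wild type, none of 38 between triple and double mutant, and 2 of 39, both higher, in the double mutant against wild type. Over all tested genes the called shares were 1.52%, 1.25% and 2.65%. At an unadjusted p under 0.05 there were 4, 5 and 7 of these further genes by the authors' Cuffdiff test, beside 12.1%, 8.45% and 16.3% of all tested genes. Among the 31 members the same counts were 6 of 25, 5 of 25 and 3 of 23. The medians of the log2 fold change over the tested genes outside the 31 were 0.06, -0.02 and 0.08, with 52.5%, 50% and 64.1% above 0. The called genes were Psme1 and Ifitm3. Psme1 encodes the alpha subunit of the proteasome activator PA28 and was listed at 58.3, 124 and 95.3 in wild type, double and triple mutant by the authors' deposited table, its locus being shared with Fam158a. It rose 2.12-fold in the double mutant there (q = 0.0066). Ifitm3, a membrane protein that blocks viral entry, was listed at 46.3, 69.4 and 49.1 in the authors' deposited table, with the double mutant highest, as for Ly6e. It rose 1.5-fold in the double mutant against wild type there (q = 0.0342) and was 1.41-fold lower in the triple than in the double mutant without passing the threshold (q = 0.0663).

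Over the whole table, the genes whose 3 group values lay nearest to those of Ly6e, by Euclidean distance of centred log2 FPKM among 12315 genes, were Asb15, Scarna13, Srpx, SNORA50 and Hlf, at distances of 0.10 to 0.12. Hlf, a transcription factor of the circadian output, was listed at 12.6, 24.5 and 12.2 in wild type, double and triple mutant in the authors' deposited table. Nearest to Iigp1 were Gm14212, Tmem135, Smarca1, Nusap1 and Ywhae, at 0.02 to 0.07. None of these 10 is an interferon-stimulated gene of the lists used here, and the likeness rests on 3 values per gene. Asb15, Srpx, SNORA50, Gm14212, Tmem135, Nusap1 and Ywhae lie in shared loci, which leaves their levels uncertain.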

How the data were processed

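Reads of total RNA from ventricle were processed by the authors on mm9. Per the submitters' processing notes the tools were STAR 2.5.2, CASAVA 1.8, Cuffdiff 2.2.1 and Cufflinks 2.2.1. No label or header names the annotation or the normalization. The authors deposited 1 FPKM per gene and group, and per the file headers a log2 fold change, a test score, a p-value and a q-value for each of 3 comparisons. With 1 value per group, no test across samples could be run here, and depth and spread are unknown. Replicates are not stated to be separate pups. The deposited log2 fold change holds no pseudocount (largest difference from the recomputed log2 ratio 4.7e-05), and the deposited q-values match p-values adjusted by Benjamini-Hochberg across the 3 comparisons pooled, to within 5.3e-07. The lowest p-value the authors deposited is 5e-05, which gives q = 0.0066. Rows marked as holding too many fragments were taken as missing. Loci count from 0 in the file and are printed with 1 added to the start. A locus listed with the same coordinates for several genes is called shared.

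The implied standard error is the absolute log2 fold change over the normal quantile of the two-sided p-value. At the lowest p-value it is the largest error that p-value allows. Errors taken from the deposited test score instead were larger by a median of 1.76 times over genes with a p-value between 0.001 and 0.5. The arithmetic of the adjustment and of the implied error was checked on simulated normal data. Such data cannot show which error applies to the deposited values, since their p-values were made by the same normal formula. Calculations used Python 3.11.15 with pandas 2.3.3 and scipy 1.17.1. The members and gene lists were chosen with earlier results of these data known. Named genes were all members, with values for those called, the 2 most abundant and the 2 with the largest difference in each role, and, from other lists, those called and up to 4 of the most abundant. Named outside this rule, after their values were seen, were markers and interferon genes listed at 0 and the Ly6 neighbours. The same holds for S100a8, Ngp, Retnlg, Ifnar1, Il28ra, Ifnk, Ptpn6, Socs1, Zbtb46, Clec9a, Siglech and Tgtp2. Promoters came from RefSeq on GRCm38.p6, and their coordinates are not those of the mm9 table. One gene of the pathway is not reported here.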

Additional observations from a re-analysis of the deposited data

How the results depend on the processing

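No paired analysis was possible because the deposited table gives 1 value per group, and for the same reason no replicate could be left out and no batch could be examined. The number of members called in the triple mutant against wild type was 1, and 2 at a q-value under 0.1, where B2m joined Iigp1. Between triple and double mutant it was 2, and 1 with q-values adjusted within that comparison, where Iigp1 had q = 0.0644 and Ly6e stayed under the threshold. The count of 1 in the double mutant against wild type held under every alternative run (q under 0.1, q within the comparison, an FPKM of 1 or 5, and no shared loci). Minimum FPKM values of 1 or 5 and leaving out shared loci changed no count. The median log2 fold change ranged from 0.17 to 0.22 in the triple mutant against wild type and from 0.19 to 0.25 between triple and double mutant over the pseudocount, filters, shared loci, rescaling and the removal of Iigp1 and Ly6e. That removal was chosen after seeing the data, as was the error from the test score. In the double mutant against wild type the median ranged from -0.05 to 0.15. With a pseudocount of 1 the difference of Iigp1 between triple mutant and wild type was 0.92 on the log2 scale. The error from the test score, against that from the p-value, was for Iigp1 0.313 against 0.281 (triple mutant against wild type), 0.297 against 0.177 (triple against double) and 0.324 against 0.189 (double against wild type), and for Ly6e 0.238 against 0.137, 0.257 against 0.283 and 0.261 against 0.237. The median over all tested genes lay between -0.0040 and -0.0011.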
